A study of Mus musculus with 16 samples.

Results

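The 9 genes described here, *Pax2*, *Pax8*, *Lhx1*, *Emx2*, *Tfap2a*, *Grhl2*, *Elf3*, *Gata3* and *Foxa1*, encode transcription factors of the kidney tubule lineage. They were taken by symbol from the TPM table (abundance divided by transcript length and scaled to a like total in each library) and by the same Ensembl identifier from the count table, which hold 53354 and 54393 genes. The cells were mIMCD3, a wild-type mouse line from the inner medullary collecting duct of an animal that carried SV40 T antigen, so that all groups are 1 immortalized line. All cells grew on permeable filters for 10 days in RenaLife medium with serum. They were then given 2 µg/mL of the antibiotic doxycycline (DOX) or its vehicle DMSO, in medium changed every day, for 3 days or 6 days, which gives 4 groups of 4 libraries and 16 in all. Polyadenylated RNA was sequenced. The labels number the replicates 1 to 4, and p-values measure the spread between these libraries, which may be technical where they do not come from separate cultures.

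During kidney development the paired-box factors Pax2 and Pax8 act together to set up the nephric lineage, and Lhx1, Emx2 and Gata3 are needed for the nephric duct and the ureteric bud, from which collecting ducts form. Grhl2, of the grainyhead family, and Elf3, of the ETS family, are factors of differentiated epithelia that act on junction and keratin genes. Tfap2a belongs to the AP-2 family and is expressed in distal nephron and collecting duct, and Foxa1 is a forkhead factor that can open closed chromatin. The question put to the data was whether the RNA of these factors differed between cells given DOX and cells given DMSO.

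Estimated counts summed to between 16933343 and 23960860 per library. A count of 3 was worth between 0.125 and 0.177 CPM, the count relative to a library size scaled here by the TMM method. Of the 9 factors, 8 had at least 1 CPM in at least 4 libraries and were tested among 13234 genes. *Lhx1*, with 4 to 26 counts per library, did not. DOX replicate 1 of 3 days stood apart from the other libraries of its group, and genes called at 3 days rose from 1658 to 2297 without it, so values are also given without it where they rest on it. Principal cell markers were low: 8 of 10, including *Aqp2* and *Avpr2*, stayed under 1 TPM in every library. Only *Aqp3* and *Scnn1a* exceeded 1 TPM in any library.

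Levels can be compared between genes in TPM, which divides by transcript length. *Pax8* had the highest TPM of the 9 factors, with 108 ± 8.47 (SD, n = 8) over the DMSO libraries of both times, followed by *Elf3* with 66.2 ± 3.27. *Grhl2* had 24.6 ± 2.44 TPM, *Pax2* 20.8 ± 2.83 TPM, *Emx2* 14.9 ± 2.51 TPM and *Tfap2a* 11.3 ± 1.35 TPM. *Gata3* and *Foxa1* were low, at 2.67 ± 0.491 and 2.51 ± 0.417 TPM, and *Lhx1* was lowest at 0.276 ± 0.119 TPM. The ranges over the 8 DMSO libraries overlapped between *Grhl2* and *Pax2*, between *Pax2* and *Emx2*, between *Emx2* and *Tfap2a*, and between *Gata3* and *Foxa1*. Within a library, *Grhl2* was above *Pax2* and *Pax2* above *Emx2* in 8 of 8, *Emx2* above *Tfap2a* in 7 of 8, and *Gata3* above *Foxa1* in 4 of 8. The order was the same in each of the 4 groups, except that *Gata3* and *Foxa1* changed places in the DMSO cells of 3 days.

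**Figure D1:**
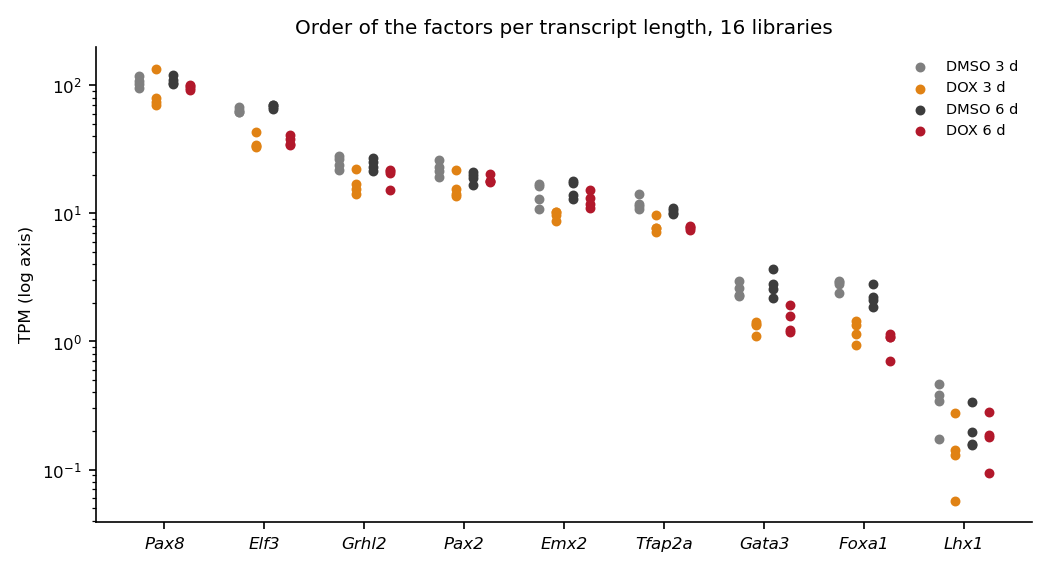
TPM on a log axis for each of the 9 factors in the 16 libraries, 1 point per library, coloured by group. *Pax8* and *Elf3* lead, *Gata3* and *Foxa1* lie together near 2.5 TPM in DMSO, and *Lhx1* is below 0.5 TPM throughout.

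*Elf3*, *Gata3* and *Foxa1* were lower in DOX than in DMSO at both times by edgeR's glmTreat with a fold-change threshold of 1.2 and Benjamini-Hochberg adjustment over all tested genes (the call rule below). 0 of the 8 were called higher. These are 3 of the 8 tested factors at 3 days and 3 of 8 at 6 days, against 7.22% of all tested genes called lower at 3 days, 11.6% at 6 days and 5.36% at both times. A rise was called for 5.30% of tested genes at 3 days and for 10.0% at 6 days. All 4 DOX libraries lay below all 4 DMSO libraries in CPM for 5 of the 8 factors at 3 days, where 19.8% of tested genes did so, and for 4 of 8 at 6 days, where 20.9% did. The opposite order held for none of the 8 factors at either time, and for 18.8% and 22.1% of tested genes. At an unadjusted p under 0.05, 4 of the 8 factors were lower and 0 higher at each time, where 11.5% of tested genes were lower at 3 days and 14.9% at 6 days. DESeq2 and limma each called 2 factors lower at 3 days and 3 at 6 days. Over all genes DESeq2 called 4.58% lower at 3 days and 8.28% at 6 days, and limma called 4.56% lower at 3 days and 922 of 13180 genes at 6 days. In bulk RNA, fewer cells that express a gene and less RNA per cell cannot be told apart.

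**Figure D2:**
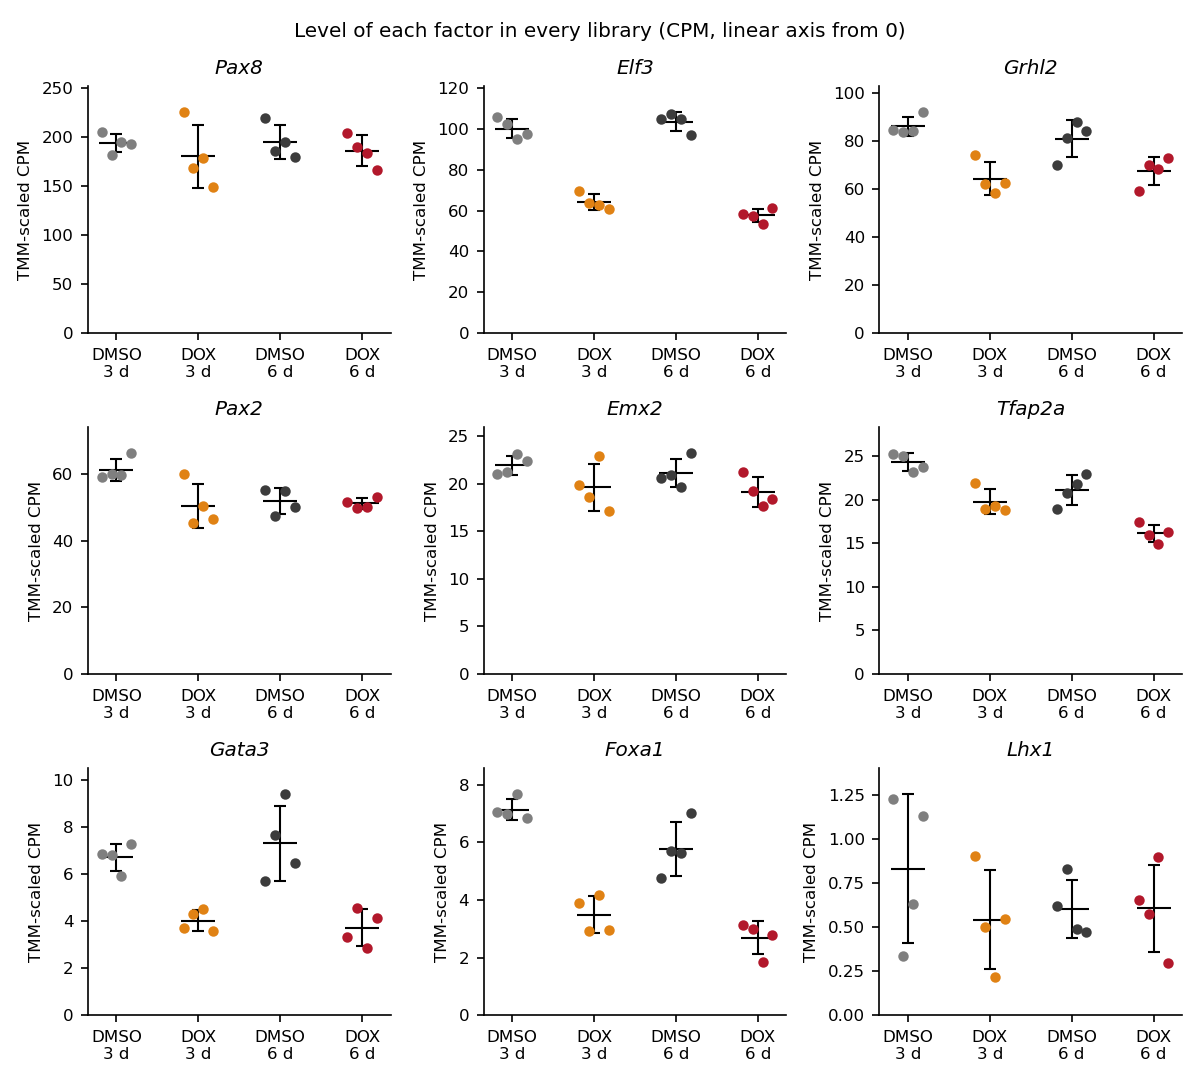
CPM of each factor in every library on linear axes from 0, with points for the 4 libraries of a group and a bar for the mean ± SD. *Elf3*, *Gata3* and *Foxa1* in DOX lie below DMSO without overlap at both times, and *Pax8* and *Emx2* overlap at both.

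*Elf3* (ENSMUSG00000003051; GRCm38 chromosome 1, 135253575 to 135258568, minus strand) is an ETS factor confined largely to epithelia. In DMSO it stood at 106, 102, 95.1 and 97.3 CPM at 3 days and at 105, 107, 105 and 97.1 CPM at 6 days. In DOX it stood at 69.7, 63.6, 62.7 and 60.9 CPM at 3 days and at 58.4, 57.4, 53.4 and 61.3 CPM at 6 days. Every DOX library was thus lower than every DMSO library. The log2 fold change was -0.64 ± 0.06 (SE; adjusted p = 8.82e-06) at 3 days and -0.85 ± 0.06 (adjusted p = 8.88e-09) at 6 days, that is 1.56 and 1.80 times lower. Leaving out each of the 16 libraries in turn gave -0.68 to -0.61 at 3 days and -0.88 to -0.81 at 6 days, all called. An annotated antisense gene, *Gm26642*, overlaps *Elf3*, and the strand setting of the authors' counting is not given in the sources used here.

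*Gata3* (ENSMUSG00000015619; chromosome 2, 9857078 to 9890034, minus strand) is a zinc finger factor of the nephric duct. In DMSO it stood at 6.86, 6.81, 5.90 and 7.25 CPM at 3 days and at 5.71, 7.64, 9.37 and 6.44 CPM at 6 days. In DOX it stood at 3.71, 4.28, 4.50 and 3.55 CPM at 3 days and at 3.32, 4.56, 2.83 and 4.12 CPM at 6 days. The groups did not overlap at either time, and the DMSO libraries of 6 days spread most. The log2 fold change was -0.74 ± 0.16 (SE; adjusted p = 0.00847) at 3 days and -0.97 ± 0.15 (adjusted p = 2.53e-04) at 6 days. These values rest on 60 to 173 counts per library. The fall at 3 days was called without any single library (-0.80 to -0.69), but not by DESeq2 (adjusted p = 0.0681) or by limma on log2(TPM + 1) (adjusted p = 0.0876). *Gata3* overlaps 2 antisense genes and 1 gene on its own strand.

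*Foxa1* (ENSMUSG00000035451; chromosome 12, 57540628 to 57546916, minus strand) overlaps no other annotated gene. In DMSO it stood at 7.04, 6.97, 7.67 and 6.86 CPM at 3 days and at 4.76, 5.71, 5.63 and 7.02 CPM at 6 days. In DOX it stood at 3.91, 2.94, 4.18 and 2.95 CPM at 3 days and at 3.12, 3.00, 1.84 and 2.80 CPM at 6 days. The highest DOX library was below the lowest DMSO library at both times. *Foxa1* had the largest fold of the tested factors, with a log2 fold change of -1.03 ± 0.15 (SE; adjusted p = 2.70e-04) at 3 days and -1.10 ± 0.16 (adjusted p = 6.86e-05) at 6 days, or 2.04 and 2.15 times lower, on 39 to 167 counts per library. Leaving out single libraries gave -1.12 to -0.95 at 3 days and -1.18 to -0.96 at 6 days, all called.

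**Figure D3:**
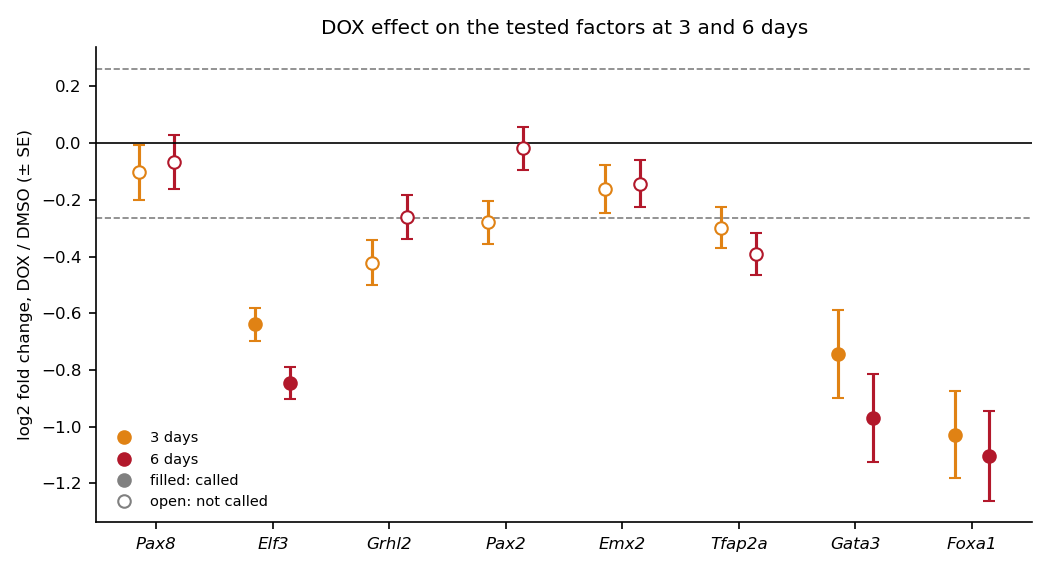
Log2 fold change of DOX over DMSO ± SE for the 8 tested factors at 3 and 6 days, ordered by TPM in DMSO, with filled points for called changes and dashed lines at a fold of 1.2. *Elf3*, *Gata3* and *Foxa1* are filled at both times, and no other factor is.

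The promoters of these 3 factors are shown because they were lower together, with the sequence taken from RefSeq (GRCm38.p6) and read 5′ to 3′ on the minus strand of each gene. Of the 250 bases before the RefSeq start, only those outside exons annotated in GENCODE are printed, and capitals mark matches to 7 words that were searched on both strands. *Elf3* is chr1:135258569-135258722, *Gata3* is chr2:9878601-9878850 and *Foxa1* is chr12:57546122-57546361. The *Gata3* and *Foxa1* windows lie inside the gene spans given above, downstream of the annotated 5′ ends. Whether these RefSeq starts are used in these cells was not tested.
Elf3: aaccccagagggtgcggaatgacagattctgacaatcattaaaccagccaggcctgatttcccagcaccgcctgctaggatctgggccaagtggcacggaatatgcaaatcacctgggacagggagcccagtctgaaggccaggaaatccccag
Gata3: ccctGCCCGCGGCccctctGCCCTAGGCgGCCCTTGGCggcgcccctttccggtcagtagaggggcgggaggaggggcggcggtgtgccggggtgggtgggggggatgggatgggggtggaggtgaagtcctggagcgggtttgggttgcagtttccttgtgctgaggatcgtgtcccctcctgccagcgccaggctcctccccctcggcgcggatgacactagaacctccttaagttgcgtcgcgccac
Foxa1: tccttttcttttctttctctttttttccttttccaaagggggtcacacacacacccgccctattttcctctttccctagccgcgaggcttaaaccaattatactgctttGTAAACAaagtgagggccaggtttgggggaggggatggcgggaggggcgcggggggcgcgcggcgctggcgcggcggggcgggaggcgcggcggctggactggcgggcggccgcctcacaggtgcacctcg

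The words searched stand for factor classes. They were GATAAG for GATA factors and GCCNNNGGC for AP-2 factors. AACCGG stood for grainyhead factors and TAATTA for homeodomain factors. TGTTTAC stood for forkhead factors, GGAAGT for ETS factors and TATAAA for the TATA box. The *Gata3* promoter holds the AP-2 word 3 times, starting 246, 231 and 221 bases before the RefSeq start. This word is in 13.7% of 32851 promoter windows of the same length. The *Foxa1* promoter holds the forkhead word on the other strand, from 141 bases before the start, a word that is in 3.17% of windows. The *Elf3* window holds AACCGG, which is in 5.62% of windows, inside an annotated exon and so not printed. The words marked do not overlap each other. GATAAG and TATAAA were in 0 of the 11 promoter windows that RefSeq gives for 8 of the 9 factors, and in 6.55% and 12.4% of all windows. Neither a match nor its absence says whether a factor binds. In GC content the *Elf3* window had 57.2% and the *Foxa1* window 62.0%, where the median over all windows was 52.4%, and the *Gata3* window had more GC than 90.8% of all windows.

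*Grhl2* (ENSMUSG00000022286; chromosome 15, 37233036 to 37363569, plus strand) and *Tfap2a* (ENSMUSG00000021359; chromosome 13, 40715302 to 40738376, minus strand) lay nearest to the threshold. *Grhl2* stood at 84.6, 84.0, 84.3 and 92.0 CPM in DMSO and at 74.3, 62.2, 58.4 and 62.7 CPM in DOX at 3 days, without overlap, and replicate 1 was the highest DOX library. Its log2 fold change of -0.42 ± 0.08 (SE) was not called (adjusted p = 0.0569). Without DOX replicate 1 of 3 days it was -0.50 and called (adjusted p = 0.00488). It was also called without DMSO replicate 1 of 6 days (adjusted p = 0.0362) or DOX replicate 1 of 6 days (adjusted p = 0.0433), which share the fit but are not compared at 3 days. It was called as well when only the libraries compared were fitted (adjusted p = 0.0441), with at least 1 CPM required in all 16 libraries (adjusted p = 0.0435) and with no filter beyond 1 count (adjusted p = 0.0453). With an offset for transcript length it was -0.27. The fall of *Grhl2* at 3 days was not called by DESeq2 (adjusted p = 0.489), by limma on TPM (adjusted p = 0.258) or with a replicate block (adjusted p = 0.0795). At 6 days *Grhl2* stood at 70.3, 81.3, 88.2 and 84.5 CPM in DMSO and at 59.3, 69.98, 68.4 and 73.1 CPM in DOX. The groups overlapped then, and the log2 fold change was -0.26 ± 0.08 (adjusted p = 0.607).

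*Tfap2a*, the AP-2 alpha gene, stood at 25.3, 24.97, 23.2 and 23.8 CPM in DMSO and at 21.9, 19.0, 19.3 and 18.8 CPM in DOX at 3 days. At 6 days it stood at 19.0, 20.8, 21.8 and 22.9 CPM in DMSO and at 17.4, 15.9, 14.9 and 16.2 CPM in DOX. DOX lay below DMSO without overlap at both times. The log2 fold changes of -0.30 ± 0.07 (SE; adjusted p = 0.446) and -0.39 ± 0.07 (adjusted p = 0.0618) were not called. At 6 days *Tfap2a* was called without DMSO replicate 1 (adjusted p = 0.0169) or DOX replicate 1 (adjusted p = 0.0307) of that time, without DOX replicate 1 of 3 days (adjusted p = 0.0475), with at least 1 CPM required in all 16 libraries (adjusted p = 0.0445) and with an offset for transcript length (adjusted p = 0.0398). DESeq2 (adjusted p = 0.480), limma on TPM (adjusted p = 0.520) and a fit with a replicate block (adjusted p = 0.0709) did not call *Tfap2a* at 6 days. *Grhl2* and *Tfap2a* each overlap 3 antisense genes.

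*Pax2* (ENSMUSG00000004231; chromosome 19, 44756045 to 44837871, plus strand) and *Pax8* (ENSMUSG00000026976; chromosome 2, 24420560 to 24475599, minus strand) encode closely related paired-box factors. *Pax2* stood at 59.1, 60.0, 59.6 and 66.1 CPM in DMSO and at 59.9, 45.3, 50.2 and 46.3 CPM in DOX at 3 days. DOX replicate 1 alone reached the DMSO range. The log2 fold change was -0.28 ± 0.08 (SE; adjusted p = 0.564), and -0.37 without that library (adjusted p = 0.0715). At 6 days *Pax2* ran from 47.3 to 55.2 CPM in DMSO and from 49.9 to 53.2 CPM in DOX, with a log2 fold change of -0.02 ± 0.08 (adjusted p = 1.000) whose sign depended on the processing. *Pax8* ran from 182 to 205 CPM in DMSO and stood at 225, 168, 179 and 149 CPM in DOX at 3 days. DOX replicate 1 was thus the highest and the other 3 were the lowest of these 8 libraries. The log2 fold change of *Pax8* was -0.10 ± 0.10 at 3 days, -0.23 without DOX replicate 1 and -0.07 ± 0.10 at 6 days, none called (adjusted p = 1.000, 0.780 and 1.000). *Pax2* overlaps 2 antisense genes and 1 on its own strand, and *Pax8* overlaps 1 antisense gene.

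*Emx2* (ENSMUSG00000043969; chromosome 19, 59458372 to 59465357, plus strand), a homeobox gene with the antisense partner *Emx2os*, ran from 21.01 to 23.1 CPM in DMSO and from 17.1 to 22.9 CPM in DOX at 3 days. At 6 days it ran from 19.7 to 23.2 CPM in DMSO and from 17.7 to 21.3 CPM in DOX. The groups overlapped at both times, and the log2 fold changes of -0.16 ± 0.08 (SE) and -0.14 ± 0.08 were not called (adjusted p = 1.000 at both). *Lhx1* (ENSMUSG00000018698; chromosome 11, 84518284 to 84525535, minus strand), a LIM homeodomain gene, was counted 20, 8, 11 and 26 times in DMSO and 18, 10, 4 and 10 times in DOX at 3 days. At 6 days it was counted 11, 18, 9 and 9 times in DMSO and 13, 14, 19 and 6 times in DOX. No difference was detectable at this depth: with no filter beyond 1 count its log2 fold change was -0.59 ± 0.37 (SE; adjusted p = 0.612) at 3 days and 0.04 ± 0.37 (adjusted p = 1.000) at 6 days.

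**Figure D4:**
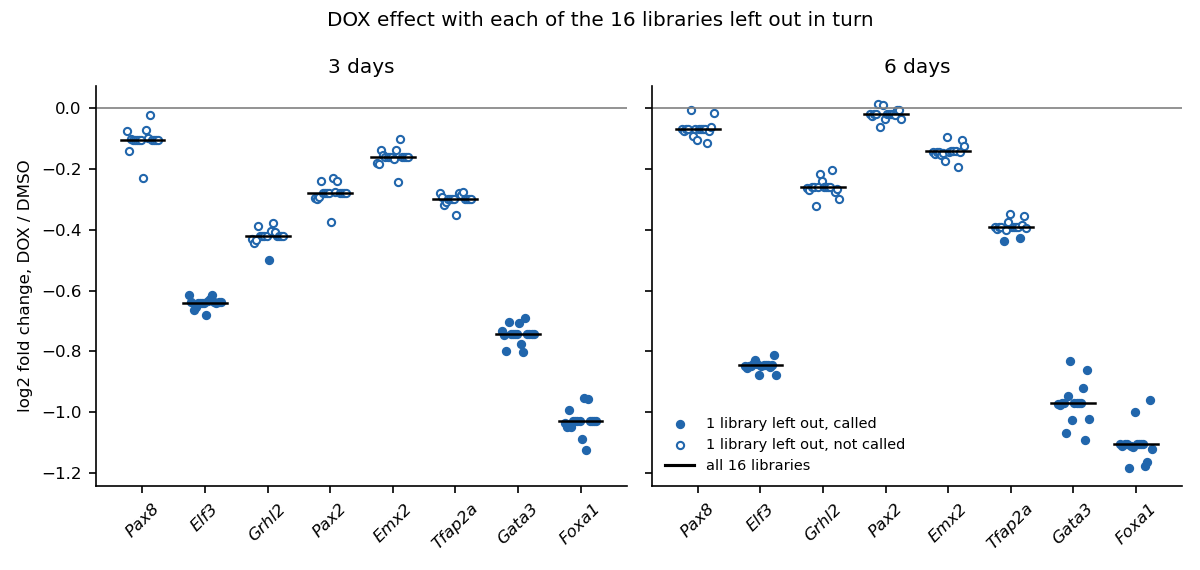
Log2 fold change of the 8 tested factors at 3 and 6 days with each of the 16 libraries left out in turn, filled where called, and a line at the value from all libraries. *Elf3*, *Gata3* and *Foxa1* are filled throughout, and *Grhl2* at 3 days and *Tfap2a* at 6 days are filled without some libraries only.

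Between the times, 0 of the 8 factors differed in DMSO cells (edgeR glmTreat; 0 also at an unadjusted p under 0.05, by DESeq2 and by limma), and 0% of all tested genes did. *Foxa1* had the largest difference of DMSO cells at 6 days from 3 days, with a log2 value of -0.30 ± 0.15 (SE). This value was -0.24 ± 0.08 for *Pax2* and -0.20 ± 0.07 for *Tfap2a*, with smaller SE. The difference between the DOX effects of 6 and 3 days was tested by edgeR's glmQLFTest, which called 17.0% of tested genes. It called 0 of the 8 factors, while 2 had an unadjusted p under 0.05, as did 31.9% of tested genes. DESeq2 called 1 of the 8 factors and 19.6% of all genes, and limma called 0 factors and 4.94% of genes. *Elf3* fell further at 6 days by 0.21 ± 0.08 on the log2 scale, which was not called (adjusted p = 0.0831) except by DESeq2 (adjusted p = 0.0448). *Pax2* had a difference of 0.26 ± 0.11 (adjusted p = 0.0961), and of 0.36 without DOX replicate 1 of 3 days, which was called (adjusted p = 0.00474). Mean *Pax2* was 61.2 CPM in DMSO and 50.4 CPM in DOX at 3 days, and 51.8 and 51.1 CPM at 6 days. Over all libraries the DMSO mean thus differed more between times than the DOX mean. For *Gata3* and *Foxa1* the difference was -0.23 ± 0.22 and -0.07 ± 0.22 (adjusted p = 0.512 and 0.852).

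In TPM the fall of the 3 called factors was of like size. *Elf3* went from 64.0 ± 2.53 to 36.0 ± 4.95 TPM at 3 days and from 68.5 ± 2.23 to 37.0 ± 3.03 TPM at 6 days (SD, n = 4; exact permutation p = 0.0286 at both). *Gata3* went from 2.52 ± 0.322 to 1.31 ± 0.137 TPM and from 2.82 ± 0.633 to 1.48 ± 0.345 TPM (exact p = 0.0286 at both). *Foxa1* went from 2.76 ± 0.261 to 1.21 ± 0.229 TPM and from 2.26 ± 0.410 to 1.00 ± 0.203 TPM (exact p = 0.0286 at both). The two-sided exact test runs over the 70 arrangements of 4 against 4, cannot give less than 0.0286, and was run 18 times without adjustment. It gave 0.0286 for *Tfap2a* at both times, for *Emx2* at 3 days (14.3 ± 2.88 against 9.77 ± 0.691 TPM) and for *Pax8* at 6 days (109 ± 7.90 against 96.8 ± 4.22 TPM), 10 times in all. In these 10, all 4 DOX libraries lay below all 4 DMSO libraries in TPM. The share of all genes with that order was 19.8% at 3 days and 20.9% at 6 days in CPM. In TPM it was not counted, so the 10 have no share to stand beside. The TPM scale shifts all genes: the median log2 fold change of all tested genes, with 1 added to TPM, was -0.15 at 3 days and -0.05 at 6 days. Relative to that median the change was -0.67 and -0.82 for *Elf3*, -0.46 and -0.56 for *Gata3*, -0.62 and -0.65 for *Foxa1*, and -0.34 and -0.19 for *Emx2*. The added 1 makes the change of low genes smaller. Of all calls by limma on this scale, 85 were higher and 601 lower at 3 days, against 702 and 956 by edgeR on counts, and at 6 days 373 and 922 against 1326 and 1530.

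Among 39 relatives of the 9 factors in their gene families, 12 were tested, 2 were called lower and 0 higher at each time by edgeR. Of all tested genes, 7.22% were called lower and 5.30% higher at 3 days, and 11.6% lower and 10.0% higher at 6 days. The median log2 fold change of these relatives was -0.23 at 3 days and -0.01 at 6 days, against 0.00 for all genes at both. At an unadjusted p under 0.05, 0 relatives were higher at 3 days and 1 at 6 days, and DESeq2 and limma called 0 higher. *Ehf*, an epithelial ETS factor close to *Elf3*, went from 218 ± 7.61 to 100 ± 2.51 CPM at 3 days and from 200.4 ± 20.4 to 81.0 ± 3.99 CPM at 6 days (SD, n = 4). Its log2 fold change was -1.12 ± 0.06 (SE; adjusted p = 6.95e-10) and -1.31 ± 0.06 (adjusted p = 9.63e-12). *Gata6*, a relative of *Gata3*, went from 2.28 ± 0.442 to 1.01 ± 0.355 CPM at 3 days (log2 fold change -1.19 ± 0.26, adjusted p = 0.00560) and from 2.17 ± 0.417 to 1.13 ± 0.374 CPM at 6 days (-0.94 ± 0.25, adjusted p = 0.0183). The call of *Gata6* at 6 days was lost without DMSO replicate 2, DOX replicate 1 or DOX replicate 4 of that time (adjusted p = 0.0682, 0.0521 and 0.0665) and by DESeq2 (adjusted p = 0.0841). Neither fall of *Gata6* was called by limma on TPM (adjusted p = 0.199 and 0.390).

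Among 46 other transcription factors of kidney development and tubule identity, 27 were tested. At 3 days 10 were called lower and 1 higher, and at 6 days 7 lower and 1 higher, with median log2 fold changes of -0.44 and -0.23. By limma on TPM, 6 were called lower and 0 higher at 3 days. Over all tested genes, edgeR called 7.22% lower and 5.30% higher at 3 days, and 11.6% lower and 10.0% higher at 6 days. *Irx3*, an Iroquois homeobox factor of nephron patterning, had log2 fold changes of -1.32 ± 0.11 (SE; adjusted p = 9.03e-08) and -1.23 ± 0.11 (adjusted p = 1.24e-07). *Id4*, which encodes an inhibitor of helix-loop-helix factors, had log2 fold changes of -1.15 ± 0.20 (adjusted p = 9.41e-04) and -2.58 ± 0.24 (adjusted p = 5.06e-08), and was at 0.520 ± 0.0792 CPM in DOX at 6 days. *Cited1*, a coactivator gene of nephron progenitors, was at -0.67 ± 0.24 at 3 days (adjusted p = 0.124) and at -2.07 ± 0.26 at 6 days (adjusted p = 5.28e-06). Its DOX libraries ran from 0.847 to 1.19 CPM at 3 days and from 0.251 to 0.638 CPM at 6 days. *Cited1* thus passed the filter only with DMSO libraries counted, a choice that favours a lower value in DOX. *Etv5*, an ETS factor that acts below Ret in the ureteric bud, was the gene called higher, by 0.93 ± 0.11 (adjusted p = 2.08e-05) and 1.13 ± 0.11 (adjusted p = 4.00e-07), the first not by limma on TPM (adjusted p = 0.118). The factors called lower at 3 days included *Foxc1*, *Foxd1*, *Sim1*, *Sim2*, *Irx5*, *Mecom* and *Zbtb16*, with log2 fold changes from -1.04 (*Zbtb16*) to -0.44 (*Sim2*). Limma on TPM did not call *Foxd1*, *Mecom* or *Sim2* (adjusted p = 0.164, 1.000 and 0.176). *Sim2* was not called by DESeq2 either (adjusted p = 0.292), nor with a length offset (adjusted p = 0.313), nor without any of 5 libraries of 3 days (DMSO replicate 3 or 4, DOX replicate 2, 3 or 4, with adjusted p from 0.0567 to 0.120).

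Among 15 further epithelial factors, 10 were tested, 1 was called lower and 0 higher at 3 days, and 3 were lower and 1 higher at 6 days. The shares over all tested genes were 7.22% lower and 5.30% higher at 3 days, and 11.6% lower and 10.0% higher at 6 days. The 0 rises at 3 days stood beside 1 at an unadjusted p under 0.05 and 0 by DESeq2 and limma, and DESeq2 called 0 falls at 3 days and 1 at 6 days. *Tead1*, a partner of Hippo pathway coactivators, was lower by glmTreat at both times, with log2 fold changes of -0.47 ± 0.08 (SE; adjusted p = 0.0181) and -0.59 ± 0.08 (adjusted p = 5.64e-04). Its call at 3 days was lost without DOX replicate 2 or 4 of 3 days (adjusted p = 0.0629 and 0.0724) by DESeq2 (adjusted p = 0.158) and with an offset for transcript length (log2 fold change -0.25). *Klf5* and *Ovol1*, both epithelial zinc finger genes, had log2 fold changes of -0.32 ± 0.09 and -0.32 ± 0.10 at 3 days, not called, and of -0.47 ± 0.09 (adjusted p = 0.0243) and -0.46 ± 0.10 (adjusted p = 0.0415) at 6 days. Without DOX replicate 1 of 3 days both were called at 3 days as well (adjusted p = 0.0114 and 0.0197), and the list then had 4 calls of a fall. Over all genes 1218 of 13206 were then called lower, against 956 of 13234 with that library. At 6 days *Klf5* was lost without DMSO replicate 3, DOX replicate 3 or DOX replicate 4 of that time (adjusted p = 0.0597, 0.0648 and 0.0530), and *Ovol1* without any of 5 libraries of that time (adjusted p from 0.0615 to 0.107). With no filter beyond 1 count *Ovol1* was not called (adjusted p = 0.0695). DESeq2 called neither at 6 days (adjusted p = 0.173 and 0.320), nor did limma (adjusted p = 0.217 and 0.393). The factor called higher at 6 days was *Cebpb*, with a log2 fold change of 0.81 (adjusted p = 0.00581). It was not called by limma on TPM (adjusted p = 0.0567) or when only the libraries compared were fitted (adjusted p = 0.0505).

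The cofactors of these families, 16 tested of 18 listed, gave 1 rise and 0 falls at 3 days and 2 rises and 1 fall at 6 days. Rises were called for 5.30% and falls for 7.22% of all tested genes at 3 days, and for 10.0% and 11.6% at 6 days. The counts of rises are near these shares. The 0 falls were also 0 at an unadjusted p under 0.05, by DESeq2 and by limma, and limma called 0 rises at 3 days. *Lmo4*, whose LIM-only protein binds the same Ldb cofactors as Lhx1, went from 62.8 ± 2.59 (SD, n = 4) to between 92.3 and 95.2 CPM at 3 days, and from 63.7 ± 2.18 to 111 ± 5.55 CPM at 6 days. Its log2 fold change was 0.57 ± 0.05 (SE; adjusted p = 1.79e-05) and 0.80 ± 0.05 (adjusted p = 4.52e-09), the first not called by limma on TPM (adjusted p = 0.790). *Kctd15*, an inhibitor of AP-2 activity, was at 0.38 ± 0.09 at 3 days (adjusted p = 0.200) and higher by 0.69 ± 0.09 at 6 days (adjusted p = 1.75e-04), with a value of -0.20 at 3 days by limma on TPM. *Cited2*, an AP-2 coactivator, was at -0.16 ± 0.05 at 3 days and -0.45 ± 0.05 at 6 days (adjusted p = 0.00163; 0.0714 by limma on TPM). *Ldb1* itself, at 72.2 TPM in DMSO, was not called at either time.

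Of 10 genes of duct signalling listed as downstream of Gata3, Pax2 or Pax8, 8 were tested for a DOX effect. Whether these factors act on them in these cells was not tested. Of the 8, 2 were called lower at 3 days and 3 at 6 days, and 0 higher at either time (0 also at an unadjusted p under 0.05, by DESeq2 and by limma). By edgeR 7.22% of all tested genes were lower and 5.30% higher at 3 days, and 11.6% and 10.0% at 6 days. *Ret*, the receptor of the ureteric bud tip, was low: it went from 1.67 ± 0.266 to 0.854 ± 0.208 CPM at 3 days and from 1.29 ± 0.382 to between 0.330 and 0.589 CPM at 6 days. The DOX libraries of *Ret* alone could not meet the filter of 1 CPM in 4 libraries. It passed only with DMSO libraries counted, a choice that favours a lower value in DOX. *Ret* fell on the log2 scale at 3 days (-0.96 ± 0.25 (SE), adjusted p = 0.0243) and at 6 days (-1.46 ± 0.28, adjusted p = 7.24e-04), and its call at 3 days was lost without DMSO replicate 2, DOX replicate 3 or DOX replicate 4 of that time (adjusted p = 0.0835, 0.0836 and 0.0567) and by DESeq2 (adjusted p = 0.207). It was also lost with a length offset (-0.78, adjusted p = 0.0927) and with no filter beyond 1 count (adjusted p = 0.0567), and limma on TPM called *Ret* at neither time. *Npnt*, a matrix ligand made by the duct, was lower by edgeR with log2 fold changes of -0.85 ± 0.09 (adjusted p = 6.52e-06) and -0.62 ± 0.09 (adjusted p = 5.10e-04), the second not called by limma (adjusted p = 0.0571). *Fgfr2*, a growth factor receptor, was at -0.62 ± 0.21 at 3 days (adjusted p = 0.149), at -0.94 and called without DOX replicate 1 (adjusted p = 1.98e-04), and at -0.89 ± 0.21 at 6 days (adjusted p = 0.0160; 0.0631 with no filter beyond 1 count). Without that library, 5 of the 8 genes were called lower at 3 days. Calls of a fall also rose over all genes, to 1218 of 13206 from 956 of 13234 with it.

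The 15 epithelial genes listed as linked to Grhl2 and Elf3 were all tested for a DOX effect. Whether they depend on either factor in these cells was not tested. At 3 days 5 were called lower and 1 higher, and at 6 days 7 lower and 1 higher. For all tested genes the shares were 7.22% lower and 5.30% higher at 3 days, and 11.6% lower and 10.0% higher at 6 days. *Krt19* and *Krt8*, keratins of simple epithelia, had log2 fold changes of -0.52 ± 0.07 (SE; adjusted p = 0.00178) and -0.48 ± 0.07 (adjusted p = 0.00562) at 3 days. At 6 days they were at -1.09 ± 0.07 (adjusted p = 8.99e-10) and -0.75 ± 0.07 (adjusted p = 6.65e-07). *Cdh16*, the kidney-specific cadherin, had log2 fold changes of -0.83 ± 0.08 and -0.84 ± 0.08 (adjusted p = 2.68e-06 and 7.46e-07). *Tgfbr2*, a TGF-beta receptor gene, was at -0.73 ± 0.06 and -0.79 ± 0.06 (adjusted p = 8.92e-07 and 7.52e-08). *Cdh1*, the E-cadherin gene bound by Grhl2, was lower at 3 days (log2 fold change -0.47, adjusted p = 0.00883) and was not called at 6 days (-0.21, adjusted p = 0.939). The call of *Cdh1* at 3 days was lost by DESeq2 (adjusted p = 0.0534) and with a length offset (-0.31, adjusted p = 0.371). *Esrp1*, an epithelial splicing regulator, was the gene called higher, at 0.44 and 0.41 (adjusted p = 0.00509 and 0.00836). By limma on TPM *Esrp1* was at 0.26 and 0.36 and was called at neither time (adjusted p = 1.000 and 0.729).

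**Figure D5:**
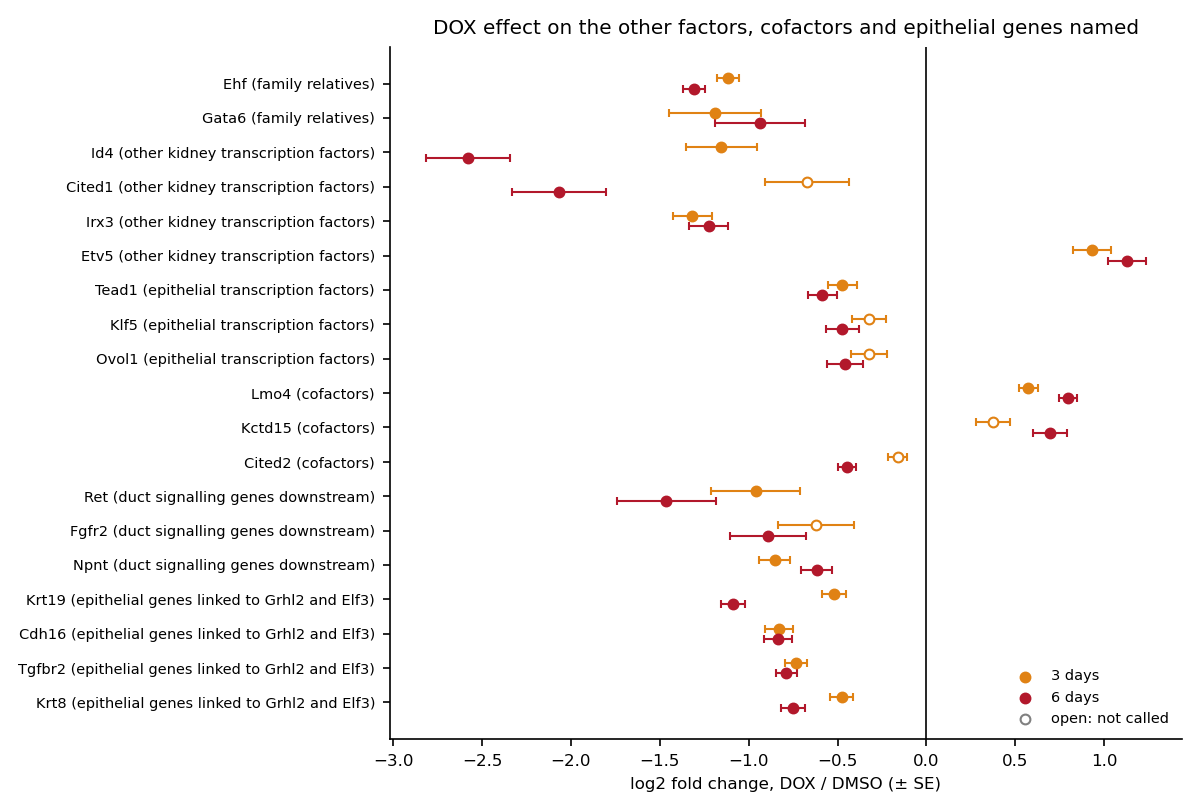
Log2 fold change of DOX over DMSO ± SE at 3 and 6 days for the named relatives, other kidney and epithelial factors, cofactors, duct signalling genes and epithelial genes, coloured by time and filled where called. Most points lie below 0, and *Etv5*, *Lmo4* and *Kctd15* lie above 0 at both times (*Kctd15* at 3 days is at -0.20 by limma on TPM).

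Markers of other cell types moved with treatment in part. The 7 proximal tubule markers summed to between 5.96 and 28.4 TPM in DMSO and between 5.33 and 9.44 TPM in DOX at 3 days, and to between 4.63 and 33.7 TPM in DMSO and between 6.05 and 20.2 TPM in DOX at 6 days. None was at 0 in all libraries, and of the 7 only *Aqp1* was called, lower at 3 days (log2 fold change -1.19 ± 0.33 (SE), adjusted p = 0.0287). This call was lost without DMSO replicate 1 or 3 or DOX replicate 3 or 4 of that time (adjusted p from 0.0607 to 0.0989), by DESeq2 and limma (adjusted p = 0.0620 and 0.172) and with a length offset (adjusted p = 0.0547). At 6 days *Aqp1* was at -0.87 ± 0.31 and not called (adjusted p = 0.0814), but was called without DMSO replicate 1 or DOX replicate 1 of that time (adjusted p = 0.0433 and 0.0302) and with no filter beyond 1 count (adjusted p = 0.00917). A fit chosen after the data were seen took the log2 of the summed CPM, not TPM, of these 7 proximal tubule markers as a covariate. In that fit the log2 fold changes at 3 and 6 days were -0.63 and -0.84 for *Elf3*, -0.68 and -0.90 for *Gata3* and -0.98 and -1.06 for *Foxa1*, all called. The 7 loop and distal tubule markers summed to between 2.07 and 10.9 TPM in the 8 DMSO libraries and between 1.48 and 7.65 TPM in the 8 DOX libraries, and 0 of 4 tested were called at either time (0 also at an unadjusted p under 0.05, by DESeq2 and by limma).

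Of the principal cell markers, 2 of 10 were tested. *Scnn1a*, a subunit of the epithelial sodium channel, was lower at both times (log2 fold change -1.05 ± 0.12 (SE) and -1.48 ± 0.12; adjusted p = 8.96e-06 and 2.13e-08), and *Hsd11b2* was lower at 6 days (-1.44, adjusted p = 0.0123). *Hsd11b2* was not called at 6 days by DESeq2 (adjusted p = 0.0511) or limma (adjusted p = 0.311), and without DMSO replicate 1 or 3 of 3 days or DMSO replicate 2 or 4 of 6 days it did not reach the filter on CPM and was not tested. *Hsd11b2* thus passed the filter only through those DMSO libraries, a choice that favours a lower value in DOX. Both tested intercalated cell markers were called lower at 3 days, *Kit* at -0.96 ± 0.21 (adjusted p = 0.00746) and *Slc26a4* at -1.01 ± 0.22 (adjusted p = 0.00635). Only *Kit* was called at 6 days (-1.02 ± 0.21, adjusted p = 0.00277), with *Slc26a4* then at -0.46 ± 0.22. DESeq2 did not call *Slc26a4* at 3 days (adjusted p = 0.0519), and limma on TPM called none of these 3 falls (adjusted p from 0.312 to 0.538). Of the podocyte markers, *Synpo* was called lower at 3 days (-0.65 ± 0.10, adjusted p = 0.00222), while the defining *Nphs1* stayed under 1 TPM. Of 14 mesenchymal markers 5 were tested, with *Zeb2*, a repressor of epithelial genes, called higher at both times (0.61 ± 0.09 and 1.28 ± 0.09; adjusted p = 0.00176 and 3.19e-09) and *Fn1* at 6 days (0.48 ± 0.09, adjusted p = 0.0158). DESeq2 did not call *Fn1* (adjusted p = 0.122), and limma on TPM did not call it either (adjusted p = 0.832). By limma on TPM *Zeb2* was at 0.04 at 3 days and 0.81 at 6 days, called at neither time (adjusted p = 1.000 and 0.0589). *Cd68*, a lysosomal gene, was called lower at both times (-0.96 ± 0.09 and -0.90 ± 0.09; adjusted p = 1.39e-06 and 9.48e-07), and the other 7 of the 8 endothelial and immune markers stayed under 1 TPM. Sums of the podocyte, mesenchymal, and endothelial and immune markers ran from 25.8 to 32.8, 42.8 to 64.9 and 18.1 to 22.6 TPM in DMSO and from 19.6 to 30.6, 44.8 to 68.6 and 8.70 to 11.1 TPM in DOX at 3 days, and those of the principal and intercalated cell markers from 4.96 to 6.33 and 2.20 to 2.56 TPM in DMSO and from 1.70 to 3.93 and 0.858 to 1.45 TPM in DOX. At 6 days the mesenchymal sum ran from 39.9 to 46.8 TPM in DMSO and from 49.1 to 61.3 TPM in DOX, higher without overlap. The podocyte sum ran from 27.6 to 29.8 TPM in DMSO and from 23.2 to 31.5 TPM in DOX at 6 days, with overlap. The endothelial and immune sum ran from 23.7 to 25.3 TPM in DMSO and from 11.8 to 13.3 TPM in DOX, the principal cell sum from 4.57 to 6.88 and from 2.13 to 3.49 TPM, and the intercalated cell sum from 1.72 to 3.90 and from 1.02 to 1.34 TPM, each lower in DOX without overlap. The part of any of these markers in the falls of *Elf3*, *Gata3* and *Foxa1* was not tested. The covariate fit above cannot separate the part of the proximal tubule markers from that of DOX. All 7 of them had log2 fold changes below 0 at both times.

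By profile over the 4 group means of log2 CPM, each centred on its own mean, the genes most like *Elf3* were *Grk5* and *Hexim1*, with root mean square differences of 0.0240 and 0.0256. Those most like *Gata3* were *Fgfr2* and *Hmgcs1* (0.0305 and 0.0317), and those most like *Foxa1* were *Il18rap* and *Gm13420* (0.0158 and 0.0250). These are the nearest of 13234 tested genes over 4 points, a description without a test.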

How the data were processed

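Groups were read from the sample labels. Per the labels and the study's methods, the authors used STAR and salmon on GRCm38.p6. The deposited estimated counts per gene are not normalized, and the deposited TPM values are per transcript length. No reads were processed again. Estimated counts were rounded, those reaching 1 CPM in 4 or more libraries were tested (*Lhx1* did not), and TMM scaling, a robust quasi-likelihood fit with 1 mean per group and glmTreat (fold-change threshold 1.2) were run with edgeR 4.0.16 in R 4.3.3, with Benjamini-Hochberg adjustment over all tested genes and a limit of 0.05. The SE was the log2 fold change over the square root of the F statistic. TPM was compared by exact permutation tests. Calculations were tested on simulated data. Equally numbered libraries did not deviate together (mean correlation -0.0955 at 3 days and -0.121 at 6 days), so numbers were not used as pairs.

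The 9 factors and the gene lists were chosen with earlier results of these data known. Named were the 9 factors, up to 4 genes per other list by the largest change among those called with separated groups, and the 2 genes most like each called factor. *Foxc1*, *Foxd1*, *Sim1*, *Sim2*, *Irx5*, *Mecom*, *Zbtb16*, *Cebpb*, *Ldb1*, *Cdh1*, *Esrp1* and *Hsd11b2* were named after their values were seen. Some listed genes are not reported here. Alternatives were RLE scaling, DESeq2 1.42.0, limma 3.58.1 on log2(TPM + 1), other thresholds and filters, no robust estimation, a replicate block, the compared libraries only, a transcript length offset, single libraries left out and, chosen after seeing the data, a proximal tubule marker covariate. Gene positions are from GENCODE M21 and promoters from RefSeq, both on GRCm38. Total counts per library of 16933343 to 23960860 set the counting error.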

Additional observations from a re-analysis of the deposited data

Results flagged for a closer look

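In 7 of 72 sets of 4 libraries (9 factors, 4 groups, CPM and TPM), a library lay farther from the other 3 than Dixon's 95% limit allows, where chance flags about 1 in 20. Of these, 3 were DOX replicate 1 of 3 days as the highest: *Pax8* at 135 TPM (others 70.5 to 79.4), *Elf3* at 43.4 TPM (others 33.0 to 34.0) and *Tfap2a* at 21.9 CPM (others 18.8 to 19.3). DMSO replicate 4 of 3 days was the highest for *Pax2* at 66.1 CPM (others 59.1 to 60.0) and for *Grhl2* at 92.0 CPM (others 84.0 to 84.6). DOX replicate 1 of 6 days was the lowest for *Grhl2* at 15.2 TPM (others 20.8 to 21.8), and DOX replicate 3 of 6 days for *Foxa1* at 0.700 TPM (others 1.08 to 1.14).

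Among the 33 genes outside the 9 factors that were named by rule, the DOX effect differed between 6 and 3 days for 7 by edgeR's glmQLFTest. That test called 17.0% of all tested genes, and the genes from the lists were named by their largest change with DOX. The difference of the log2 fold changes, 6 days minus 3 days, was -1.43 for *Id4* (adjusted p = 0.00573), -1.40 for *Cited1* (adjusted p = 0.0125), -0.57 for *Krt19* (adjusted p = 8.78e-04), -0.28 for *Cited2* (adjusted p = 0.0128), -0.27 for *Krt8* (adjusted p = 0.0483), 0.22 for *Lmo4* (adjusted p = 0.0380) and 0.67 for *Zeb2* (adjusted p = 0.00227).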

How the results depend on the processing

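The count of factors called in DOX against DMSO was 3 at each time. Without a fold-change threshold it was 6 at 3 days, with *Pax2*, *Tfap2a* and *Grhl2* added, and 5 at 6 days, with *Tfap2a* and *Grhl2* added. Leaving out single libraries gave 3 to 4 at each time. The difference between times, 0 factors called, became 1 by DESeq2 (*Elf3*), 1 with no filter beyond 1 count (*Pax2*) and 0 to 1 without single libraries (*Pax2* without DOX replicate 1 of 3 days). The count for DMSO over time stayed at 0 in each alternative run. With the replicate block, 3 factors were called at 3 days and 3 at 6 days, and it changed no call of a factor. With the block *Aqp1* was called lower at 6 days (adjusted p = 0.0442), and *Kit* at 3 days was not called with the block and a length offset (adjusted p = 0.0504).

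The log2 fold change of *Pax2* at 6 days was above 0 with no filter beyond 1 count (0.018), with the length offset (0.00039) and with that offset and the replicate block (0.0024), and ran from -0.061 to 0.013 without single libraries. By limma on log2(TPM + 1), *Kctd15* at 3 days was at -0.20, *Fn1* at 3 days at -0.066, and the difference between times was 0.14 for *Tfap2a* and 0.068 for *Foxa1*. Without single libraries that difference ran from -0.045 to 0.16 for *Pax8*, -0.041 to 0.10 for *Emx2* and -0.16 to 0.069 for *Foxa1*, and *Fn1* at 3 days ran from -0.0084 (without DOX replicate 1) to 0.17. The DOX minus DMSO difference of *Lhx1* at 6 days ran from -0.059 to 0.0146 TPM without single libraries. The causes were not tested. Calls over all genes ran from 686 (limma) to 5982 (no threshold) around 1658 at 3 days, and from 1295 to 6702 around 2856 at 6 days. At 4 to 26 counts per library, depth limits *Lhx1*.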
